A study of Homo sapiens with 3 samples.

Results

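The HOX genes were described across BEAS-2B, A549 and HCC827, with 1 RNA-Seq library per line. All gene names made of HOX, a cluster letter from A to D and a number were taken, which gave 39 of the 20494 genes used, with 11 in the HOXA cluster, 10 in HOXB, 9 in HOXC and 9 in HOXD. To these were added the 6 circRNAs, of 92509 in the table, whose host gene has such a name. BEAS-2B is an immortalized line derived from normal bronchial epithelium. A549 and HCC827 are lung adenocarcinoma lines, the former with wild-type EGFR and the latter with mutated EGFR. All 3 were grown in the same serum-containing medium and none was treated, and total RNA was depleted of ribosomal RNA before sequencing. Each line is the descendant of the cells of 1 person, so a difference between lines cannot be told apart from a difference between persons. With no replicates no spread could be estimated, and the values below are given without a test.

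HOX genes encode transcription factors that bind DNA through a homeodomain. In mammals they lie in clusters, and genes at the same place in different clusters are paralogues that carry the same number. Low-numbered genes at one end of a cluster are first active in the front of the embryo, and high-numbered genes at the other end act further back, in the lumbar and tail region and in the limbs. The pattern is set by retinoic acid and other signals and is kept in adult cells by Polycomb proteins, which hold genes silent, and Trithorax proteins, which hold them active. In the mouse, Hoxa5 is needed for normal development of the trachea and lung.

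By summed level the HOXB cluster was highest in A549 and HOXC in BEAS-2B, though with scaling by the median of ratios HOXC came out slightly higher in HCC827. HOXA2 and HOXA3 were highest in HCC827, and the HOXD genes stood at the lowest listed value almost throughout. mRNA levels are given in FPKM, that is, sequenced fragments divided by transcript length and library size, so that levels of different genes can be compared. The deposited table lists low mRNAs at 1 FPKM, with few exceptions, and this value is called the floor here. A gene at the floor was not taken to be silent, since the ribosomal protein gene RPL29 has 127 FPKM in HCC827 and stands at the floor in the other lines. Of the 39 HOX genes, BEAS-2B listed 11 above the floor (28.2%), A549 21 (53.8%) and HCC827 15 (38.5%). The corresponding shares of all genes used were 56.4% (BEAS-2B), 56.6% (A549) and 57.0% (HCC827), each above that of the HOX genes. The highest member was HOXC8 at 6.03 FPKM in BEAS-2B, HOXB7 at 10.5 FPKM in A549 and HOXA3 at 9.88 FPKM in HCC827. These levels equalled or exceeded those of 68.4%, 81.6% and 79.8% of all genes of the line, respectively. HOX mRNAs were thus of moderate abundance at most.

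**Figure D1:**
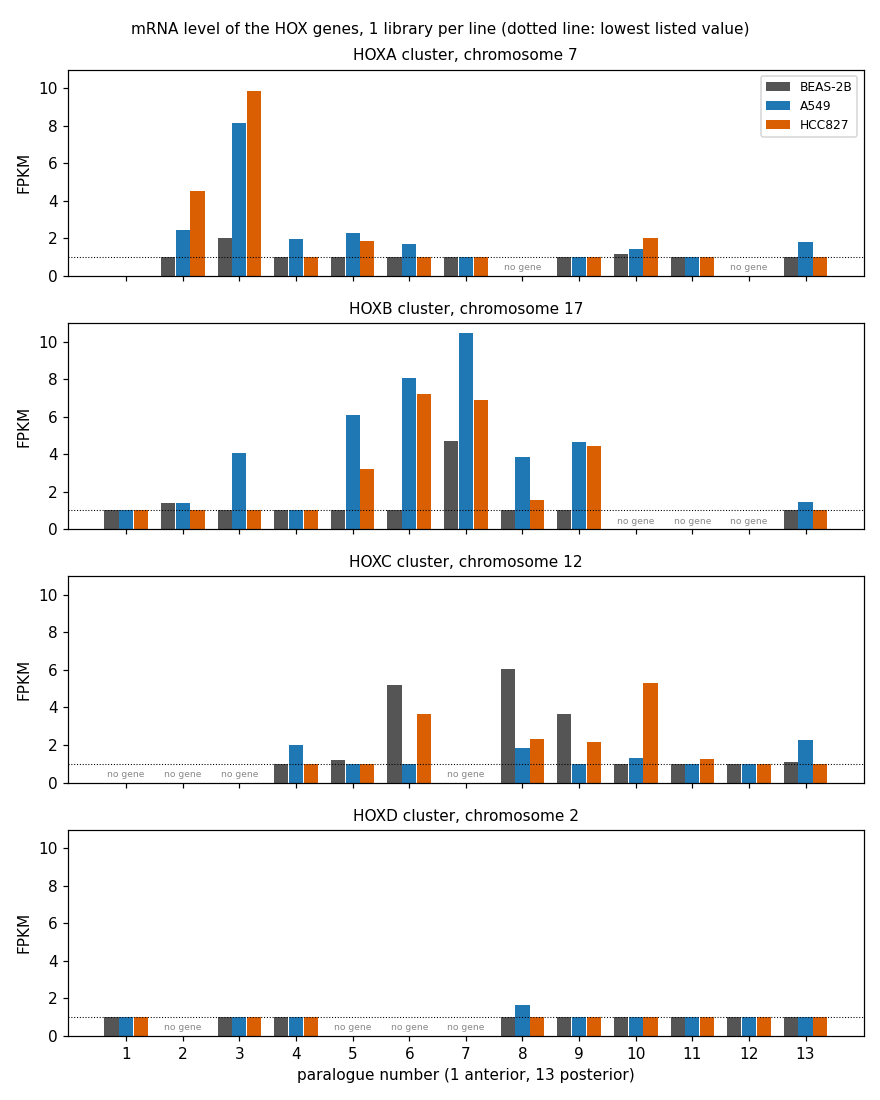
mRNA level in FPKM of the HOX genes described here against paralogue number, 1 panel per cluster and 1 bar per line, with the lowest listed value of 1 FPKM as a dotted line. A549 bars stand out from HOXB5 to HOXB9, BEAS-2B bars at HOXC6, HOXC8 and HOXC9, both cancer lines at HOXA3, and the HOXD panel is flat but for HOXD8 in A549.

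Some members cannot be separated fully by sequencing. In the RefSeq gene table (assembly GRCh38.p14, used for gene order and overlap only), where all 39 symbols were found, 11 HOX genes overlap another HOX gene and 12 overlap an antisense transcript. HOXA3 overlaps HOXA4, HOXA5 and HOXA6, HOXB3 overlaps HOXB4, HOXC4, HOXC5 and HOXC6 overlap one another, and HOXD3 overlaps HOXD4. Whether strand was used in counting is not given in the sources used here, so that reads of a HOX gene and of its antisense partner may stand together. The values of these genes are therefore uncertain as to which transcript they come from.

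The RefSeq promoter table (GRCh38.p14, 250 bases before to 50 bases after a start) held 27 windows for 20 of the 39 genes, of which 26 were distinct. Of the distinct windows, 16 were of HOXA, 8 of HOXD, 1 of HOXB and 1 of HOXC. Shares and medians over them therefore describe mainly HOXA and HOXD. The windows are shown for HOXA2, listed above the floor in both cancer lines but not in BEAS-2B, for the start that HOXC4 and HOXC5 share, which shows why these overlapping genes are hard to tell apart, and for HOXD8, the only HOXD gene above the floor. CpG dinucleotides, the sites of DNA methylation, are in capitals.
HOXA2 (chr7:27102634-27102933, minus strand): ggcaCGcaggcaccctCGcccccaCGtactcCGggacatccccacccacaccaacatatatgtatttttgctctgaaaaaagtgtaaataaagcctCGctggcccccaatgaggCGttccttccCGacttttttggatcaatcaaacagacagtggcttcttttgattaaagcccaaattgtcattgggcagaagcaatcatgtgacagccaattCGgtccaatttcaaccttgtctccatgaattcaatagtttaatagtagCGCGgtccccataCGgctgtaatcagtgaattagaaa
HOXC4 and HOXC5 (chr12:54016638-54016937, plus strand): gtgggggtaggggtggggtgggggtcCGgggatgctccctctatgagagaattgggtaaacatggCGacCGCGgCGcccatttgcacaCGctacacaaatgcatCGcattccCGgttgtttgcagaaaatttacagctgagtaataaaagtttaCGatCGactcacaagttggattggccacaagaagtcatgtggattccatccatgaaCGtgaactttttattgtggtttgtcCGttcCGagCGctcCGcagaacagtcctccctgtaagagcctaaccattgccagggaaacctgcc
HOXD8 (chr2:176129455-176129754, plus strand): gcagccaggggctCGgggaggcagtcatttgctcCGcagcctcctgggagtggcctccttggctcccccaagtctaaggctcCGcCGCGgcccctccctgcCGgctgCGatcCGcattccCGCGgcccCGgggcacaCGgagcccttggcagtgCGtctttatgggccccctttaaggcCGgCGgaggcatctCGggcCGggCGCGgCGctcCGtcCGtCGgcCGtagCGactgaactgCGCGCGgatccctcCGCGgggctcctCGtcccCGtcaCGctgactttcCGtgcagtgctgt
There are 11 CpGs in the HOXA2 window, 15 in that of HOXC4 and HOXC5 and 34 in that of HOXD8. Over the 26 distinct HOX windows the median was 22.5 CpGs, against 14 over 35114 windows of all genes. The median GC content was 58.0% in the HOX windows and 58.7% in all windows. HOXD windows held between 4 and 36 CpGs and HOXA windows between 0 and 44. Whether CpG content bears on the mRNA level was not tested. Motifs were searched on both strands. TATAAA, the TATA box, was in 5 of 26 HOX windows (19.2%, against 11.5% of all windows). TGATNNAT, the core of sites bound by HOX and PBX proteins together, was in 3 (11.5%, against 7.40%). One of these was in the HOXA2 window, on the strand opposite to the gene, and no motif searched for was found in the other windows shown. AGGTCA, the sequence that retinoic acid receptors bind as a repeat, was in 0 of 26 (13.8% of all windows). A match is a description of the letters in the window and not a site of binding.

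In A549 the HOXB cluster had the largest share of listed members, where 8 of its 10 members were above the floor, against 2 in BEAS-2B and 5 in HCC827. HOXB7, a gene of the middle of the cluster that is often raised in carcinomas, was the only one of them well above the floor in all 3 lines, at 4.71 FPKM (BEAS-2B), 10.5 FPKM (A549) and 6.89 FPKM (HCC827). Its neighbour HOXB6 was at the floor in BEAS-2B, at 8.07 FPKM in A549 and at 7.19 FPKM in HCC827. HOXB5, which in the mouse acts in the branching of lung airways, was at the floor in BEAS-2B, at 6.11 FPKM in A549 and at 3.23 FPKM in HCC827. Both thus stood at the lowest listed value in BEAS-2B and well above it in the cancer lines, and both overlap the antisense gene HOXB-AS3, whose part in the values was not tested. HOXB9 was at the floor in BEAS-2B and nearly equal in the cancer lines, at 4.63 FPKM in A549 and 4.41 FPKM in HCC827. HOXB8, known in the mouse for its part in myeloid progenitor cells, was at the floor in BEAS-2B, at 3.84 FPKM in A549 and at 1.56 FPKM in HCC827. HOXB3 was above the floor in A549 alone, at 4.05 FPKM. The remaining members were low everywhere. HOXB2, which patterns the hindbrain, was at 1.41 FPKM in both BEAS-2B and A549 and at the floor in HCC827. HOXB13, a regulator of prostate development that lies apart from the rest of the cluster, was at 1.47 FPKM in A549 and at the floor in the other lines, and HOXB1 and HOXB4 were at the floor in all 3 lines.

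In the order of the genes along the cluster, A549 had an unbroken run of 6 HOXB members above the floor, from HOXB5 to HOXB13, and HCC827 a run of 5, from HOXB5 to HOXB9. In BEAS-2B no HOXB neighbours were above the floor together. Summed over the cluster, HOXB reached 14.1, 42.0 and 28.3 FPKM in BEAS-2B, A549 and HCC827, where 10 would be the sum with every member at the floor.

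In the HOXC cluster BEAS-2B stood highest. HOXC6 was at 5.19 FPKM in BEAS-2B, at the floor in A549 and at 3.66 FPKM in HCC827. HOXC8, which acts at the level of the thorax, was at 6.03 (BEAS-2B), 1.85 (A549) and 2.32 FPKM (HCC827). HOXC9 was at 3.64 FPKM in BEAS-2B, at the floor in A549 and at 2.17 FPKM in HCC827. For these neighbours BEAS-2B came first, HCC827 next and A549 last. HOXC10, a gene of the lumbar level, had another order, with BEAS-2B at the floor, A549 at 1.31 FPKM and HCC827 at 5.31 FPKM. HOXC11 was above the floor in HCC827 alone, at 1.26 FPKM. HOXC13, which is needed for hair and nails, was at 1.07 FPKM (BEAS-2B), 2.26 FPKM (A549) and at the floor (HCC827). HOXC4 was at 1.01 FPKM (BEAS-2B), 1.98 FPKM (A549) and at the floor (HCC827), and HOXC5 was above the floor in BEAS-2B alone, at 1.2 FPKM. HOXC12 was at the floor in all 3 lines. The HOXC genes above the floor formed a run of 5 in BEAS-2B, from HOXC4 to HOXC9, and a run of 5 in HCC827, from HOXC6 to HOXC11. HOXC4 and HOXC5 in the former and HOXC11 in the latter were near the floor. Above 2 FPKM, both lines listed HOXC6, HOXC8 and HOXC9, and HCC827 also HOXC10. Since HOXC4, HOXC5 and HOXC6 overlap one another, part of the BEAS-2B run may be reads of a gene counted for another. In A549 4 HOXC members were above the floor, with no neighbours among them. The summed level of the cluster was 21.2 FPKM (BEAS-2B), 12.4 FPKM (A549) and 18.7 FPKM (HCC827), where 9 would be the sum at the floor. With scaling by the median of ratios BEAS-2B had a HOXC sum of 18.9 FPKM and HCC827 one of 19.6 FPKM, so that the order of these lines turned.

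At the HOXA cluster HOXA3 held the highest level in both cancer lines. HOXA3, which patterns the pharynx and thymus in the mouse, was at 2.04, 8.17 and 9.88 FPKM in BEAS-2B, A549 and HCC827. HOXA2, which sets the identity of the second branchial arch in the mouse, was at the floor in BEAS-2B, at 2.44 FPKM in A549 and at 4.53 FPKM in HCC827. Both were thus listed highest in HCC827 and lowest in BEAS-2B. HOXA5, the member with a known part in the mouse lung, was at the floor in BEAS-2B, at 2.27 FPKM in A549 and at 1.87 FPKM in HCC827. Of the other central genes, HOXA4 was at 1.99 FPKM and HOXA6 at 1.69 FPKM in A549, both at the floor in BEAS-2B and HCC827, and HOXA7 was at the floor throughout. Of the posterior genes, HOXA10, which acts in the uterus, was at 1.14 FPKM (BEAS-2B), 1.41 FPKM (A549) and 2.02 FPKM (HCC827). HOXA13, a gene of the distal limb, was at 1.82 FPKM in A549 and at the floor elsewhere, while HOXA9, best known from blood progenitors and leukaemia, and HOXA11 were at the floor in all lines. The genes from HOXA2 to HOXA6 were above the floor without a gap in A549, and HOXA2 and HOXA3 in HCC827. Since HOXA3 overlaps HOXA4, HOXA5 and HOXA6, part of the run may be reads of 1 gene counted for another. The sums were 13.3, 25.3 and 27.4 FPKM in BEAS-2B, A549 and HCC827, where 11 would be the sum at the floor.

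Among the HOXD genes, which act in the limbs and the urogenital tract, HOXD8 was at 1.65 FPKM in A549 and at the floor in the other lines. The other 8 members, HOXD1, HOXD3, HOXD4 and HOXD9 to HOXD13, were at the floor in all 3 lines. They make up 8 of the 14 HOX genes at the floor throughout. The other 6 are HOXA7, HOXA9, HOXA11, HOXB1, HOXB4 and HOXC12.

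**Figure D2:**
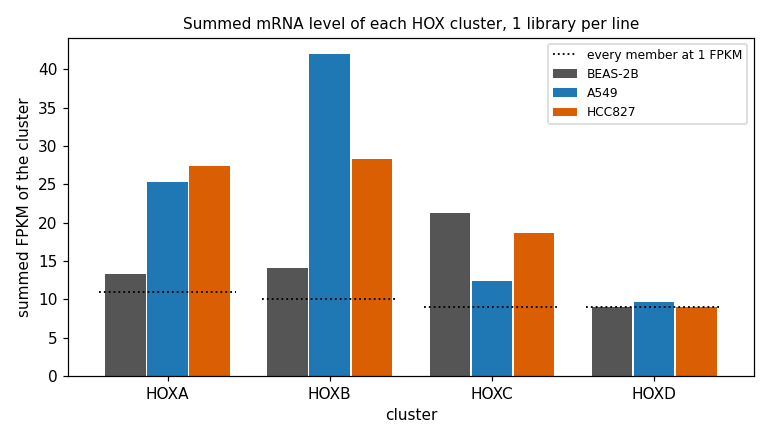
Summed FPKM of each HOX cluster (bars, 1 per line and cluster), with the sum that would result with every member at 1 FPKM as a dotted line. The HOXB sum is 42.0 FPKM in A549 and 14.1 FPKM in BEAS-2B, the HOXC sum runs the other way with 12.4 and 21.2 FPKM, and the HOXD bars lie at or near the dotted line.

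By position in the cluster, anterior genes (numbers 1 to 3) were above the floor in 3 (BEAS-2B), 5 (A549) and 3 (HCC827) of 8 cases. Central genes (4 to 8) were above it in 5 (BEAS-2B), 10 (A549) and 7 (HCC827) of 15 cases. Posterior genes (9 to 13) were above it in 3, 6 and 5 of 16 cases, respectively. The posterior share was the lowest in each of the 3 lines, at 18.8%, 37.5% and 31.2%. Neighbours in a cluster were in the same state, both above or both at the floor, in 24 (BEAS-2B), 20 (A549) and 26 (HCC827) of 35 adjacent pairs. Of these pairs, 8, 6 and 8 belong to HOXD. HOXA3, HOXA10, HOXB7 and HOXC8 were above the floor in all 3 lines. Another 7 members were above it in both cancer lines and not in BEAS-2B, 6 in A549 alone, 1 in HCC827 alone and 1 in BEAS-2B alone. HOXB2, HOXC4 and HOXC13 were above it in BEAS-2B and A549, and HOXC6 and HOXC9 in BEAS-2B and HCC827.

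Between A549 and BEAS-2B, HOXB6 was the HOX gene past the main call, a 4-fold difference, with a pseudocount of 1 and not with one of 5. Differences are given on the scale of log2(FPKM + 1), which understates those of low genes, and genes at the floor in both lines of a pair were left out. Of the 39 members, 24 were compared and 15 were at the floor in both lines. Members listed in 1 line of a pair and at the floor in the other had to differ, so that counts and medians over those compared describe the values and support nothing further. A difference of 4-fold in FPKM + 1 was reached by 1 member, HOXB6, higher in A549 by 2.18, and by no member in the other direction, whereas 2.90% of all 12952 genes compared were 4-fold higher and 2.89% 4-fold lower. As a share of the members this is near the background. A difference of 2-fold was reached upwards by 7 members (10.5% of all genes compared), HOXB6, HOXB5 (1.83), HOXA3 (1.59), HOXB9 (1.49), HOXB3 (1.34), HOXB8 (1.28) and HOXB7 (1.01). It was reached downwards by 3 members (15.3% of all genes compared), HOXC6 (-1.63), HOXC8 (-1.30) and HOXC9 (-1.22). Those at least 2-fold higher in A549 thus came from HOXB except for HOXA3, and those lower from HOXC, where HOXC13 (0.65), HOXC4 (0.57) and HOXC10 (0.21) had positive differences. The median difference over the 24 members was 0.53, beside -0.16 over all genes compared.

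Between HCC827 and BEAS-2B, 19 members were compared and 20 were at the floor in both lines. HOXB6 was again the only member past 4-fold, higher by 2.03, and again not with a pseudocount of 5 (3.75% of all 13138 genes compared were 4-fold higher and 3.44% lower). A 2-fold difference upwards was reached by 6 members (12.9% of all genes compared), HOXB6, HOXA3 (1.84), HOXC10 (1.66), HOXA2 (1.47), HOXB9 (1.44) and HOXB5 (1.08), and downwards by 1 (16.6%), HOXC8 (-1.08). These members came from 3 clusters. HOXC6 and HOXC9 differed by -0.41 and -0.55. The median was 0.40 over the 19 members and -0.14 over all genes compared. Both comparisons use the same BEAS-2B library, so that a low value there raises both differences.

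Between HCC827 and A549, which does not involve BEAS-2B, 24 members were compared and none was 4-fold different (3.63% of all 13100 genes compared were higher in HCC827 and 3.05% lower). HOXC10 (1.45) and HOXC6 (1.22) were at least 2-fold higher in HCC827 (13.8% of all genes compared), and HOXB3 (-1.34) at least 2-fold lower (12.4%). HOXB8 differed by -0.92 and HOXB5 by -0.75, while HOXB6 and HOXB9 differed by -0.15 and -0.06. The median was -0.23 over the members and 0.02 over all genes compared, and the former turned to 0.08 with a filter at 2 FPKM.

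**Figure D3:**
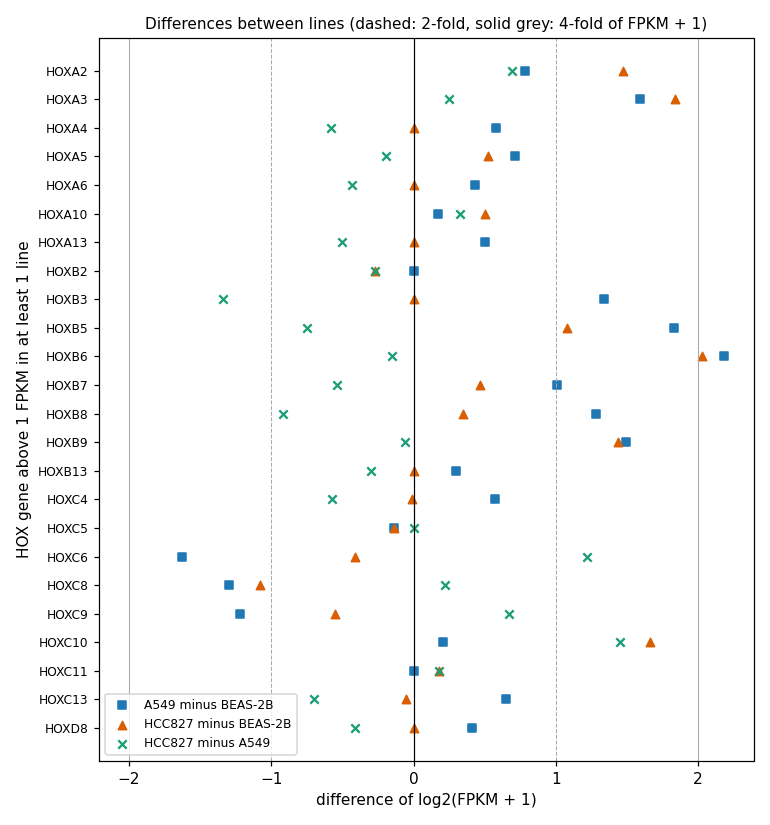
Difference of log2(FPKM + 1) for the HOX genes described here that were above 1 FPKM in at least 1 line, with 1 symbol per pair of lines and vertical lines at 2-fold and 4-fold. HOXB6 alone passes 2 on this scale, at 2.18 in A549 and 2.03 in HCC827 against BEAS-2B, and HOXC6, HOXC8 and HOXC9 lie to the left in A549.

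CircRNAs are closed RNA loops, and 5 genes hosted the 6 listed. Levels are TPM, a share of all circRNA transcripts, as the authors gave them. BEAS-2B had 5 of the 6 above 0, A549 had 6 and HCC827 none. Over the whole set of circRNAs, 46.2% (BEAS-2B), 47.5% (A549) and 5.34% (HCC827) were above 0, so that most circRNAs in HCC827 are listed at 0 and the 0 of the HOX circRNAs there was not read as their absence. The highest was hsa_circ_0044361 of HOXB3, on the minus strand of chromosome 17 from 46632892 to 46632980 in hg19 as the table gives it, at 20.5 TPM in A549 and 0 in BEAS-2B and HCC827. Its level equalled or exceeded 81.9% of the circRNAs above 0 in A549, whose median was 4.51 TPM. Its genomic span is 88 bases, where the other HOX circRNAs span between 2485 and 3763 bases. The part of this short span in its TPM was not tested. The other circRNA of this gene, hsa_circ_0044360, was at 1.81 TPM (BEAS-2B), 4.63 TPM (A549) and 0 (HCC827). The mRNA of HOXB3 was above the floor in A549 alone. hsa_circ_0044363 of HOXB5 was at 0.0442 TPM (BEAS-2B), 4.95 TPM (A549) and 0 (HCC827), and the HOXB5 mRNA, too, was at the floor in BEAS-2B and highest in A549. hsa_circ_0044362 of HOXB4 went the other way, at 2.96 TPM (BEAS-2B), 1.18 TPM (A549) and 0 (HCC827), with the mRNA at the floor throughout. hsa_circ_0026688 of HOXC11, with 0.0557 TPM (BEAS-2B) and 0.379 TPM (A549), and hsa_circ_0079662 of HOXA9, at 0.115 and 0.340 TPM, were at 0 in HCC827. Their hosts were at the floor in BEAS-2B and A549. Summed over the 6, the level was 4.99 TPM (BEAS-2B), 31.9 TPM (A549) and 0 (HCC827), and hsa_circ_0044361 made up most of the sum in A549. The sources used here do not say how circular and linear RNA of 1 host were separated, and the part of linear RNA in these values was not tested.

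Among the cofactors of HOX proteins, PBX3 and MEIS3 were highest in BEAS-2B, as were most members of this list. PBX, MEIS and PKNOX proteins bind DNA together with HOX proteins. PBX3 was at 8.42 (BEAS-2B), 1.16 (A549) and 2.45 FPKM (HCC827), lower in A549 than in BEAS-2B by 2.13 on the log2(FPKM + 1) scale. MEIS3 was at 11.4 FPKM (BEAS-2B), 5.96 FPKM (A549) and at the floor (HCC827). Of the 9 genes of this list, 8 were compared in each pair with BEAS-2B. PBX3 was 4-fold lower in A549 than in BEAS-2B (2.89% of all genes compared), and MEIS3 was 4-fold lower in HCC827 than in BEAS-2B (3.44%). Over the list members compared, the median difference to BEAS-2B was -0.97 for A549 and -0.67 for HCC827, and that of HCC827 to A549 was 0.46. Over all genes compared these medians were -0.16, -0.14 and 0.02. PBX2, the most abundant of them in BEAS-2B, was at 27.6 FPKM (BEAS-2B), 10.8 FPKM (A549) and 15.2 FPKM (HCC827).

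Of 23 Polycomb genes, CBX8 was 4-fold higher in A549 than in BEAS-2B (2.90% of all genes compared). No other member was called in that pair, a count near the background. CBX2 was 4-fold lower in HCC827 than in A549 (3.05% of all genes compared). CBX8 and CBX2 encode chromobox subunits, which bind the histone mark of Polycomb. CBX8 was at the floor in BEAS-2B, at 9.57 FPKM in A549 and at 2.77 FPKM in HCC827. CBX2 was at 2.08, 8.96 and 1.27 FPKM in BEAS-2B, A549 and HCC827. Both were thus highest in A549. EZH2, the enzyme that writes the mark, was at 12 (BEAS-2B), 9.81 (A549) and 9.73 FPKM (HCC827). The median differences of the Polycomb list were -0.37, -0.18 and -0.01 in the same order of pairs, all nearer to 0 than those of the cofactors. Of 14 Trithorax genes and demethylases of the Polycomb mark, 1 was past 4-fold, ASH2L, lower in HCC827 than in either other line (3.44% and 3.05% of all genes compared were lower there), a count near the background. ASH2L, a core subunit of histone methyltransferases, was at 12.6 FPKM (BEAS-2B), 7.77 FPKM (A549) and at the floor (HCC827). The median differences of that list were -0.43, -0.28 and 0.35. KMT2A, a methyltransferase that keeps HOX genes active, was at 11.5, 2.40 and 7.10 FPKM.

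Genes of retinoic acid, a signal that activates HOX genes in embryos, had 4-fold differences in all 3 pairs of lines. Of 18 such genes, 3 were 4-fold higher and none lower in A549 than in BEAS-2B, 4 were higher and 1 lower in HCC827 than in BEAS-2B, and 2 were higher and 3 lower in HCC827 than in A549. The shares of all genes compared that were higher and lower were 2.90% and 2.89% in the first of these pairs, 3.75% and 3.44% in the next and 3.63% and 3.05% in the last. ALDH1A1, an enzyme that makes retinoic acid, was at 19.2 FPKM (BEAS-2B), 2397 FPKM (A549) and at the floor (HCC827). ALDH1A3, with the same activity, was at 10.7 FPKM (BEAS-2B), 4.41 FPKM (A549) and 62.1 FPKM (HCC827). RDH10, which makes the precursor retinal, had 2.94, 18.9 and 72.6 FPKM in BEAS-2B, A549 and HCC827. CYP26B1, which breaks retinoic acid down, was at 7.79 FPKM in A549 and at the floor elsewhere. CRABP2, which carries retinoic acid to its receptors, was at 6.67 (BEAS-2B), 3.07 (A549) and 165 FPKM (HCC827). Of the receptors, RARA was at 1.26 FPKM (BEAS-2B), 3.46 FPKM (A549) and 8.51 FPKM (HCC827), and RARB at 3.12 FPKM, 10.8 FPKM and the floor. The median differences of the list were 0.90, 0.82 and 0.48, beside -0.16, -0.14 and 0.02 over all genes compared. No link between these genes and the HOX genes was tested.

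**Figure D4:**
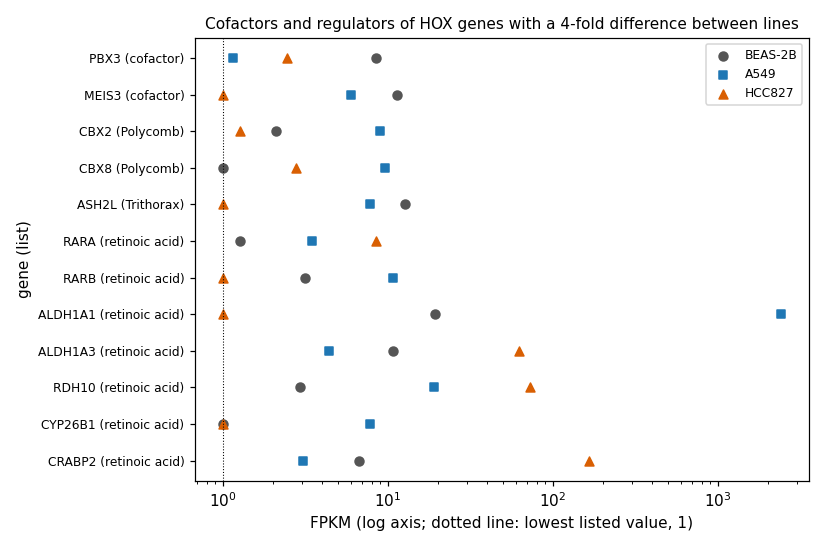
FPKM on a log axis, 1 symbol per line, of the cofactor, Polycomb, Trithorax and retinoic acid genes described here with a 4-fold difference of FPKM + 1 in at least 1 pair of lines. CBX2 and CBX8 are highest in A549, PBX3 and MEIS3 in BEAS-2B, and ALDH1A1 reaches 2397 FPKM in A549.

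Of 32 genes that flank the clusters, 28 could be compared between A549 and BEAS-2B, with none 4-fold higher and 1 4-fold lower in A549, near the shares over all genes (2.90% and 2.89%). In each of the other pairs 27 were compared and none was past 4-fold, where the shares over all genes were between 3.05% and 3.75%. Beside HOXB, the chromatin gene CBX1 was at 65.7, 30.7 and 26.7 FPKM in BEAS-2B, A549 and HCC827, and the transcription factor gene NFE2L1 at 41.4, 27.3 and 24.1 FPKM, both lower in the cancer lines, where the HOXB sum was higher. TTLL6, a tubulin-modifying enzyme gene close to HOXB13, was above the floor in A549 alone, at 6.35 FPKM. Beside HOXC, CALCOCO1 was at 26.4 (BEAS-2B), 3.04 (A549) and 8.09 FPKM (HCC827), the same order of lines as HOXC6, HOXC8 and HOXC9, while CBX5 was at 78.7, 59.5 and 45.3 FPKM.

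The labels of the lines were set beside markers of cell types. Of 5 epithelial markers 3 were above the floor in BEAS-2B (summed level 287 FPKM), 5 in A549 (1480 FPKM) and 5 in HCC827 (1160 FPKM). The members differed in order. CDH1 and EPCAM were at the floor in BEAS-2B, at 18.2 and 4.23 FPKM in A549 and at 198 and 166 FPKM in HCC827, and KRT19 was at 1.84, 28.7 and 697 FPKM. KRT8, which made up most of the sums of BEAS-2B and A549, was at 282, 1419 and 91.6 FPKM. Of 5 mesenchymal markers 3, 2 and 2 were above the floor, with sums of 487, 181 and 9.79 FPKM. VIM was at 411 FPKM, COL1A1 at 60.6 FPKM and PDGFRB at 12.5 FPKM in BEAS-2B, while COL1A2 and DCN were at the floor in all 3 lines. Of 4 airway basal markers, KRT17 was at 82.1 FPKM in BEAS-2B and at the floor in the cancer lines, TP63 was at 2.03 FPKM in A549 alone, and KRT5 and KRT14 were at the floor throughout. All 5 lung lineage markers were at the floor in BEAS-2B. FOXA2 was above it in A549 alone, at 10.4 FPKM, NKX2-1 in HCC827 alone, at 9.92 FPKM, NAPSA was at 1.14 FPKM (A549) and 34.5 FPKM (HCC827), and SFTPB and SFTPC were at the floor. MUC5B, a mucin of secretory cells, was at the floor in BEAS-2B, at 11.2 FPKM in A549 and at 48.0 FPKM in HCC827. VIM made up most of the mesenchymal sum in BEAS-2B and A549. Without scaling, the mesenchymal sum and the HOXC sum were both highest in BEAS-2B, while the former was lowest in HCC827 and the latter in A549. The part of the markers in the HOX levels was not tested. In bulk RNA, fewer cells that carry an mRNA and less of it per cell cannot be told apart.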

How the data were processed

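RNA depleted of ribosomal RNA from BEAS-2B, A549 and HCC827 was made into 1 library per line for Illumina sequencing. The authors deposited mRNA levels in FPKM. For them the study's methods name PEAT, STAR and Cufflinks with a GENCODE annotation, and a mouse genome build for these human lines, while the submitters' processing notes name hg19 as the build and, with their roles not stated, kallisto, sleuth and FastQC 0.11.7. CircRNA levels were deposited in TPM, and the program that made them is not given in the sources used here. The deposited fold changes are the authors' own comparison and were not used, nor were the predicted miRNA targets. FPKM and TPM keep no counts here, so depth is unknown for all 3 libraries and no interval from counts could be had.

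Of 20635 names, 117 that were repeated and 28 that had become numbers, some in both groups, were left out, which left 20494 genes. Differences of log2(FPKM + 1) were computed with a pseudocount of 1 for genes above 1 FPKM in at least 1 line of a pair, and a 4-fold difference of FPKM + 1 was the main call. With 1 library per line no test was run. A few genes are not reported here, though counts, sums and medians over a cluster or list include them. All other HOX genes are accounted for. In the lists of cofactors, regulators and flanking genes, the genes reported are those with a 4-fold difference, and at most 4 further genes that define a list, and cell type markers are given by counts, sums and values of members. Of the genes flanking the clusters, CBX1, NFE2L1, ATP5G1, TTLL6 and CBX5 were chosen after their values were seen. The members and lists were chosen with earlier results of these data known. The calls were tested on simulated data in which only genes well above the floor were changed. That test does not show how changes of genes near the floor, as most HOX genes are, would be called. Alternatives were pseudocounts of 0.1 and 5, no filter, a filter at 2 FPKM, a 2-fold difference, median-of-ratios scaling and other levels for counting a gene or circRNA as listed. Python 3.11.15, numpy 2.4.6, pandas 2.3.3 and matplotlib 3.10.9 were used.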

Additional observations from a re-analysis of the deposited data

How the results depend on the processing

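With a pseudocount of 0.1, the HOX genes 4-fold higher than in BEAS-2B were 3 in A549 and 5 in HCC827 and those lower in A549 were 1, and with a pseudocount of 5 none was higher in either line. Scaling by the median of ratios gave 2 higher in HCC827 than in BEAS-2B, as HOXA3 came to the 4-fold limit, and turned the differences of HOXC4 and HOXC13 in that pair from -0.01 and -0.05 to 0.10 and 0.06. It also shifted the median over all genes compared from -0.16 to 0.03 for A549 and from -0.14 to 0.04 for HCC827, both against BEAS-2B. With a 2-fold difference the counts were 7 higher and 3 lower for A549 against BEAS-2B, 6 and 1 for HCC827 against BEAS-2B, and 2 and 1 for HCC827 against A549. The median difference of the HOX genes compared, A549 against BEAS-2B, was 0.85 and 0.20 with pseudocounts of 0.1 and 5, 0.00 without the filter, 0.89 with a filter at 2 FPKM and 0.66 with scaling. For HCC827 against BEAS-2B it was 0.54, 0.19, 0.00, 0.79 and 0.56 in the same order. For HCC827 against A549 it was -0.37, -0.10, 0.00, 0.08 and -0.25, so that its direction turned with the filter at 2 FPKM. That filter left out HOXA4, HOXA6, HOXA13, HOXB2, HOXB13, HOXC4, HOXC11 and HOXD8. All of these but HOXC11 were at the floor in HCC827 and had negative differences in that pair. BEAS-2B had 6 HOX genes above 2 FPKM, A549 had 11 and HCC827 had 12, and above 5 FPKM these were 2, 4 and 4. The lead of A549 over HCC827 in listed HOX genes thus rests on genes between 1 and 2 FPKM. BEAS-2B had the fewest at each of these levels. Scaled sums for HOXA, HOXB, HOXC and HOXD were 11.9, 12.6, 18.9 and 8.04 FPKM in BEAS-2B, 26.8, 44.5, 13.1 and 10.2 FPKM in A549, and 28.6, 29.5, 19.6 and 9.40 FPKM in HCC827, where HOXC came out higher in HCC827 than in BEAS-2B. HOX circRNAs above 1 TPM were 2 in BEAS-2B and 4 in A549, above 5 TPM 0 and 1, and their scaled sums were 6.80 and 48.0 TPM. No paired analysis was possible because each line has 1 library. With unknown depth and a floor at 1 FPKM, differences between genes near the floor were not detectable.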

Other observations

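Summed by paralogue number over the clusters, group 3 stood at 4.04 FPKM (BEAS-2B), 13.2 FPKM (A549) and 11.9 FPKM (HCC827), where its 3 members at the floor would give 3. Group 8 was at 8.03 FPKM (BEAS-2B), 7.34 FPKM (A549) and 4.88 FPKM (HCC827), and group 9 was at 6.64, 7.63 and 8.58 FPKM. The sums of group 9 hide a change of cluster, since HOXC9 alone was above the floor in BEAS-2B, HOXB9 alone in A549 and both in HCC827. Group 10 was highest in HCC827, at 8.33 FPKM against 3.14 FPKM in BEAS-2B and 3.73 FPKM in A549.

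Of 13 other homeobox genes related to HOX, among them CDX1, CDX2, EVX1 and GBX2, only MNX1, which acts in motor neurons and the pancreas, was above the floor in any line. It was at the floor in BEAS-2B, at 9.38 FPKM in A549 and at 3.27 FPKM in HCC827.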
